A study of Homo sapiens with 6 samples.

Results

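The 10 genes described here belong to the machinery that switches on late cell cycle transcription and drives cells into mitosis. They are the transcription factors MYBL2 (also called B-MYB) and FOXM1, the MuvB subunits LIN9, LIN37, LIN52 and LIN54, the kinases AURKA, PLK1 and CDK1, and CDC20, an activator of the anaphase-promoting complex. They were taken by symbol, and all 10 were present among the 39323 genes of the deposited count table. All 10 also passed the filter on low counts that left 16869 genes for testing.

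RNA was measured in MDA-MB-231, a mesenchymal line of human triple-negative breast cancer. This name is in all titles, which were followed, whereas the number at its end rises from sample to sample in the cell line field of the labels. In the siSF3B6 group, cells had been transfected with a small interfering RNA duplex against SF3B6, which encodes a small subunit of the SF3b part of the U2 snRNP, the particle that recognises the branch point of introns. In the siNC group, cells had been transfected with a duplex that targets no gene. Each group had 3 libraries of polyadenylated RNA, made with 1 duplex per group, and the time between transfection and harvest is not given in the sources used here. The series design asks what SF3B6 does in these cells and calls the replicates biological. No label says that they came from separate cultures, so the p-values cover only the variation among the sequenced libraries, which may be technical.

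Levels are given as TMM-scaled CPM, that is, read counts relative to a library total corrected for composition. SF3B6 itself had 22.5, 25.0 and 21.3 CPM in siSF3B6 replicates 1 to 3 against 86.4, 80.5 and 102 CPM in siNC replicates 1 to 3, a log2 fold change of -1.96 (SE 0.104). Gene totals were between 28504091 and 38546037 reads per library. Mitochondrially encoded genes took 10.6% to 11.8% of the reads in the siSF3B6 libraries, and 3.38%, 3.93% and 9.07% in siNC replicates 1, 2 and 3. At least 1 read was found for 24516 to 25566 genes in the siSF3B6 libraries and for 30930, 32041 and 24579 genes in siNC replicates 1, 2 and 3. The part of these differences between libraries in the results was not tested directly, but the 10 genes, and the list genes named for the size of their change, were also computed against siNC replicate 3 alone. That fit holds 1 control library and no spread within siNC. A call lost in it can reflect the smaller number of libraries, so its sizes of change are given, for all 10 genes and for part of the list genes. VIM, a mesenchymal marker of the line, averaged 3200 CPM in siSF3B6 and 3020 CPM in siNC. Of 12 luminal and epithelial genes, 3 (ESR1, PGR and FOXA1) stayed under 1 CPM in all 6 libraries. The others had higher levels, such as KRT8 with 1130 CPM in siSF3B6 and 1030 CPM in siNC. The 12 genes summed to 2430 to 2860 CPM in siSF3B6 and 2390 to 2590 CPM in siNC. Of the 9 tested, 3 were called higher (EPCAM, CDH1 and GATA3) and 1 lower (TFF1). The summed level of 10 leukocyte markers was 18.0 to 28.6 CPM in siSF3B6 and 15.6 to 18.3 CPM in siNC. That of 10 stromal and endothelial markers was 25.5 to 39.0 CPM in siSF3B6 and 23.9 to 29.2 CPM in siNC. Both highest sums, 28.6 and 39.0 CPM, were in siSF3B6 replicate 2. Of 5 leukocyte genes tested, 3 were called higher and 0 lower, and of 7 stromal and endothelial genes 2 were called higher and 2 lower.

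As background, LIN9, LIN37, LIN52 and LIN54 form the MuvB core together with the histone chaperone RBBP4. In resting cells and early in the cycle the core joins a pocket protein (RBL1 or RBL2) and an E2F-DP pair to form the DREAM complex, which represses cell cycle genes. Later in the cycle the pocket protein leaves, MYBL2 binds the same core and FOXM1 follows, and the complex then activates genes such as AURKA, PLK1, CDC20 and CDK1. CDK1 with cyclin B is the kinase that starts mitosis, PLK1 and AURKA promote its activation, and CDC20 ends it by directing the anaphase-promoting complex to securin and cyclin B. MYBL2 itself is a known target of E2F factors and of DREAM.

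Promoter sequences are shown because the genes were grouped by this shared control, which acts through short promoter elements. RefSeq promoter windows on GRCh38.p14, running from 250 bases before to 50 bases after each start, were matched by symbol for 8 of the 10 genes (13 windows). No window was found for FOXM1 and AURKA. The motifs searched, on both strands, were the cell cycle genes homology region (CHR, TTTGAA or TTTAAA), which LIN54 binds, the CCAAT box (CCAAT), a MYB site (AACGG), forkhead sites (TGTTTA or GTAAACA, which overlap) and E2F sites (TTTGGCGC, TTTCCCGC or TTTGCCGC). The shorter E2F letters GGCGGGA were added after the MYBL2 window had been read. The 250 bases before the start are printed for MYBL2, the gene that differed most, and for the late genes CDC20, PLK1 and CDK1, all on the plus strand. They are chr20:43666864-43667113 for MYBL2, chr1:43358731-43358980 for CDC20, chr16:23678639-23678888 for PLK1 and chr10:60778228-60778477 for the downstream start of CDK1. Capitals mark the motifs on either strand.
MYBL2: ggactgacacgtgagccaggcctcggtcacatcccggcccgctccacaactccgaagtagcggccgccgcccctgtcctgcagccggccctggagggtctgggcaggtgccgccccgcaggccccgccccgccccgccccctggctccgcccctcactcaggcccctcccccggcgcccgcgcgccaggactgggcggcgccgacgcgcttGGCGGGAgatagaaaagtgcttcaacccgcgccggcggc
CDC20: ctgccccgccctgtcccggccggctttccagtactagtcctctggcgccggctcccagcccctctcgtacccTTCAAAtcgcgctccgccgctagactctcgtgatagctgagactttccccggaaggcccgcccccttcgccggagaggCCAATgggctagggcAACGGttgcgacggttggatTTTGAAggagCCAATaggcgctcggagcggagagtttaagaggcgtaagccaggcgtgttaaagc
PLK1: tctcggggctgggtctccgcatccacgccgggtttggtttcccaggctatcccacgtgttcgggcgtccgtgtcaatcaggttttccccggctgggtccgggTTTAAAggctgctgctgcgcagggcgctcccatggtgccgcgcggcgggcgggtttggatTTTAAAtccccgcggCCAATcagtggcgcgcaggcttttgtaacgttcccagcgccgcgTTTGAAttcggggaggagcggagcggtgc
CDK1: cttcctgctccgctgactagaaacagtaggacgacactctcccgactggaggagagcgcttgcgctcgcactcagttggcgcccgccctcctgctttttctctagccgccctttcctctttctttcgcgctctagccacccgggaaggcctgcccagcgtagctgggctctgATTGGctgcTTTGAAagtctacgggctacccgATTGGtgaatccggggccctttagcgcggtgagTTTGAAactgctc

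In these windows CDC20, PLK1 and CDK1 held CHR letters close to the start, at -65 in CDC20, at -88 and -29 in PLK1 and at -69 and -13 in CDK1, counted from the start. Each of the 3 also held a CCAAT box or its reverse ATTGG, nearest to the start at -55 in CDC20, -73 in PLK1 and -46 in CDK1. CDC20 had a MYB site at -85, between its CCAAT boxes. A second start of CDK1 further upstream had CHR letters at -161 and -131, a CCAAT box at -150, a MYB site at -120 and the overlapping forkhead letters at -208. The MYBL2 window held none of the CHR, CCAAT, MYB, forkhead or longer E2F letters, and had the added GGCGGGA at -39.

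Over the 8 genes with a window, CHR letters were found in 6, against 27.9% of all 27305 genes in the table. A gene was counted when any of its windows matched, and 24.0% of all 35116 windows held CHR letters. CCAAT boxes were in 5 of the 8 (39.7% of all genes), MYB sites in 3 (23.0%), forkhead letters in CDK1 alone (14.7%) and a longer E2F site in LIN52 alone (3.44%), where it starts at -25. The short letters GGCGGGA were in MYBL2 and in all 4 LIN genes (18.0% of all genes). These words are short and common, so a match is a description of the letters and not of a bound site. In the narrower window that begins 150 bases before the start, CHR letters were in 5 of the 8 genes, CCAAT boxes in 4 and forkhead letters in 0.

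Of the 10 genes, 4 were lower in siSF3B6 and 0 were higher at an adjusted p under 0.05 (edgeR quasi-likelihood test, Benjamini-Hochberg over all 16869 genes). The genes called lower were MYBL2, FOXM1, LIN52 and CDC20. At an unadjusted p under 0.05, 0 were higher, and DESeq2 also called 0 higher. Among all genes tested, 40.8% were called, 20.0% lower and 20.8% higher, so calls in this comparison were frequent. The libraries of the groups did not overlap for 6 of the 10 genes, against 52.1% of all genes tested. The median log2 fold change of the 10 genes was -0.16, against 0.00093 over all genes tested. With siNC replicate 3 as the only control, the median was -0.23 for the 10 genes and 0.0058 over all genes. In these bulk samples, fewer cells in a phase of the cycle and less RNA per cell cannot be told apart.

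**Figure D1:**
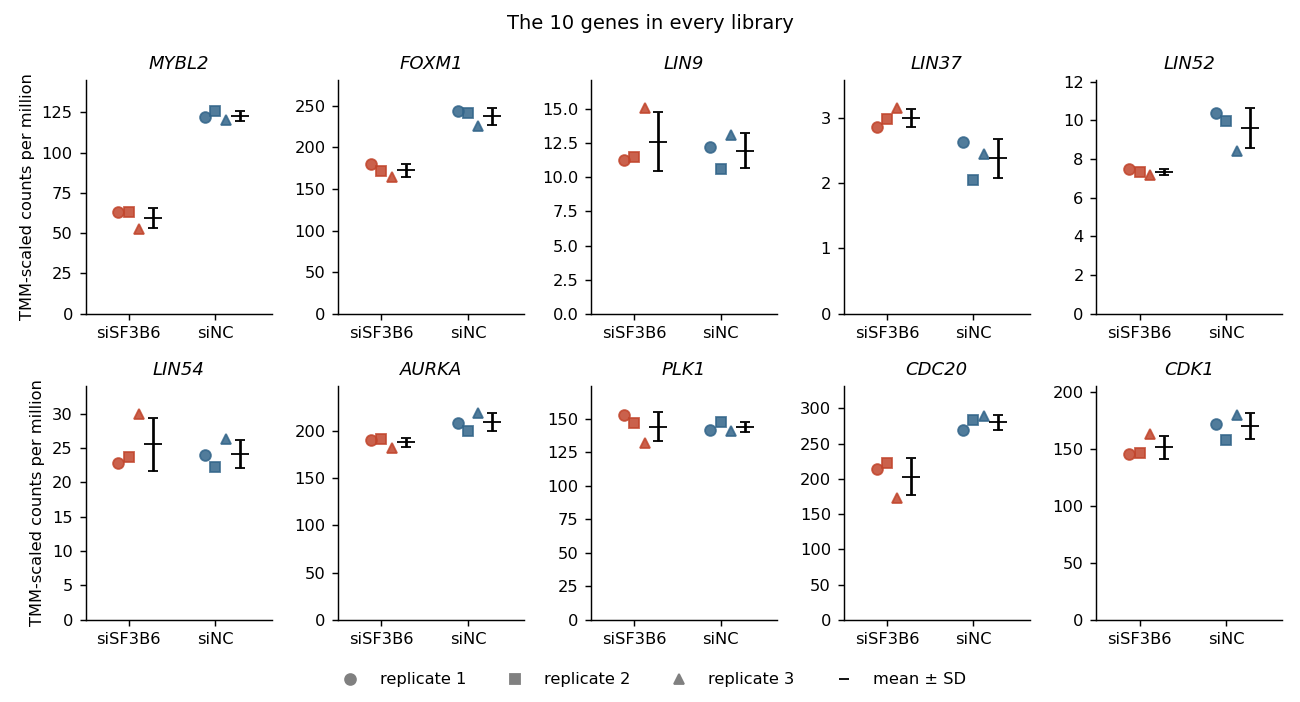
TMM-scaled CPM of each of the 10 genes in the 3 siSF3B6 libraries and the 3 siNC libraries, with the mean and SD beside the points; each panel has its own axis from 0. The siSF3B6 points of MYBL2 lie between 52.3 and 63.2 CPM, under all siNC points (120 to 126 CPM), while the PLK1 points of the groups overlap.

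MYBL2 differed most of the 10 genes. It had 63.2, 63.2 and 52.3 CPM in siSF3B6 replicates 1 to 3 against 122, 126 and 120 CPM in siNC replicates 1 to 3. Every siSF3B6 library was far below every siNC library, and replicate 3 was the lowest of the siSF3B6 group. MYBL2 thus stood at 48.5% of its siNC level, a log2 fold change of -1.04 (SE 0.0884, 95% interval -1.23 to -0.85, adjusted p = 3.42e-06). Only 1.59% of the tested genes had a lower log2 fold change. It was called lower in all 20 alternative analyses, with values between -1.15 and -0.83, and stood at -1.02 against siNC replicate 3 alone. MYBL2 (ENSG00000101057.16) lies at chr20:43667019-43716496 on the plus strand of GRCh38, and the longest annotated transcript has 13 exons.

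FOXM1, the forkhead factor that joins the MYBL2-MuvB complex, also fell, by less. It had 180, 172 and 165 CPM in siSF3B6 replicates 1 to 3 against 244, 242 and 226 CPM in siNC replicates 1 to 3. The groups were apart, with the highest siSF3B6 library well under the lowest siNC library. The log2 fold change was -0.46 (SE 0.0764, 95% interval -0.63 to -0.30, adjusted p = 0.000387), which placed FOXM1 at 72.6% of its siNC level. Its 95% interval did not reach that of MYBL2. The call was kept in all 20 alternatives (values from -0.57 to -0.35), and the value was -0.40 against siNC replicate 3 alone. FOXM1 (ENSG00000111206.13, chr12:2857681-2877155, minus strand) shares 15.94% of its exonic bases with ITFG2 on the opposite strand, and the use of strand in counting is not given in the sources used here.

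Exact two-sided permutation tests of the 6 values gave p = 0.1 for each member whose groups did not overlap, which is the smallest p that 3 against 3 libraries allow. The calls therefore rest on the fit across all genes, where the spread is shared between genes.

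The MuvB subunits showed no common direction. LIN52, the subunit whose phosphorylation by DYRK1A favours DREAM assembly, had 7.49, 7.31 and 7.19 CPM in siSF3B6 replicates 1 to 3 against 10.4, 9.97 and 8.42 CPM in siNC replicates 1 to 3. The siSF3B6 libraries were close together and below all siNC libraries, of which replicate 3 came nearest. LIN52 fell by 0.39 on the log2 scale (SE 0.117, 95% interval -0.64 to -0.14, adjusted p = 0.0168), on 220 to 325 reads per library. This call was lost when siNC replicate 1 or siNC replicate 2 was left out. LIN52 was at -0.33 (adjusted p = 0.0837) without siNC replicate 1 and at -0.36 (adjusted p = 0.0633) without siNC replicate 2. It was at -0.21 against siNC replicate 3 alone. LIN52 (ENSG00000205659.11) lies at chr14:74084796-74201235, plus strand.

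LIN37, a subunit needed for repression by DREAM, had all siSF3B6 libraries above all siNC libraries, unlike LIN9, LIN52 and LIN54. It had 2.86, 2.98 and 3.14 CPM in siSF3B6 replicates 1 to 3 against 2.63, 2.05 and 2.44 CPM in siNC replicates 1 to 3. These levels are low, 62 to 110 reads per library, and the gap between the groups is smaller than the range within siNC. The log2 fold change of 0.33 (SE 0.164, 95% interval -0.021 to 0.68) did not pass the threshold (adjusted p = 0.123). It did so when the counts were offset for GC content and length (0.52, adjusted p = 0.0236). LIN37 was at 0.28 against siNC replicate 3 alone. LIN37 (ENSG00000267796.8, chr19:35748361-35754519, plus strand) has 26.67% of its exonic bases in common with another gene on its own strand and 41.84% with one on the other strand, so its count is uncertain.

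LIN9 had 11.3, 11.5 and 15.1 CPM in siSF3B6 replicates 1 to 3 against 12.2, 10.6 and 13.1 CPM in siNC replicates 1 to 3. LIN54, the DNA-binding subunit, had 22.9, 23.7 and 30.0 CPM in siSF3B6 replicates 1 to 3 against 24.0, 22.2 and 26.3 CPM in siNC replicates 1 to 3. For both genes the groups overlapped, and replicate 3 was the highest library of each group. LIN9 had a log2 fold change of 0.074 (95% interval -0.20 to 0.35, adjusted p = 0.672) and LIN54 one of 0.081 (95% interval -0.16 to 0.32, adjusted p = 0.593). The sign of both turned without siSF3B6 replicate 3, to -0.076 for LIN9 and -0.056 for LIN54, and also when libraries were scaled by size alone, to -0.025 for LIN9 and -0.019 for LIN54. The intervals allow differences of either sign. LIN9 (ENSG00000183814.16) lies at chr1:226231149-226309869 and LIN54 (ENSG00000189308.11) at chr4:82909973-83012926, both on the minus strand.

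Of the late effector genes AURKA, PLK1, CDK1 and CDC20, CDC20 passed the threshold and the others did not. It had 214, 222 and 173 CPM in siSF3B6 replicates 1 to 3 against 269, 283 and 289 CPM in siNC replicates 1 to 3. All siSF3B6 libraries were below all siNC libraries, and siSF3B6 replicate 3 was clearly the lowest. The log2 fold change was -0.47 (SE 0.0948, 95% interval -0.67 to -0.26, adjusted p = 0.0016). It was -0.37 (adjusted p = 0.00172) without siSF3B6 replicate 3, and -0.52 against siNC replicate 3 alone. The GC and length offset gave -0.30 (adjusted p = 0.00134), which moved the value by more than 1.5 times. CDC20 (ENSG00000117399.14) lies at chr1:43358955-43363203, plus strand, and the pseudogene CDC20P1 had at most 2 reads in a library.

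PLK1, the polo-like kinase of mitotic entry and spindle assembly, had 153, 147 and 132 CPM in siSF3B6 replicates 1 to 3 against 142, 148 and 141 CPM in siNC replicates 1 to 3. The siNC libraries lay inside the range of the siSF3B6 libraries. The log2 fold change was 0.0088 (SE 0.0797, 95% interval -0.16 to 0.18, adjusted p = 0.942), so that a change as large as that of CDC20 or FOXM1 lay outside the interval. Under the GC and length offset PLK1 stood at 0.13 (adjusted p = 0.0421), and at -0.10 (adjusted p = 0.387) when libraries were scaled by size alone. PLK1 was at 0.024 against siNC replicate 3 alone. PLK1 (ENSG00000166851.15, chr16:23677656-23690367, plus strand) has 11.62% of its exonic bases in common with a gene on the other strand.

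AURKA, the spindle pole kinase that activates PLK1, had 190, 191 and 182 CPM in siSF3B6 replicates 1 to 3 against 208, 200 and 219 CPM in siNC replicates 1 to 3. The groups did not overlap, but the gap between them was smaller than the range within siNC. Its log2 fold change was -0.16 (SE 0.0751, 95% interval -0.32 to 0.0053, adjusted p = 0.112). AURKA passed the threshold under scaling by library size alone (-0.26, adjusted p = 0.014), under the GC and length offset (-0.18, adjusted p = 0.0104) and within the libraries numbered 1 and 2 (-0.10, adjusted p = 0.031). AURKA (ENSG00000087586.18) lies at chr20:56369389-56392337, minus strand, and the pseudogene AURKAP1 had at most 1 read in a library.

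CDK1 had 145, 146 and 163 CPM in siSF3B6 replicates 1 to 3 against 172, 158 and 180 CPM in siNC replicates 1 to 3. The groups overlapped, since siSF3B6 replicate 3 was above siNC replicate 2. The log2 fold change was -0.17 (SE 0.0821, 95% interval -0.34 to 0.011, adjusted p = 0.124). Without siSF3B6 replicate 3 CDK1 passed the threshold at -0.23 (adjusted p = 0.027), and under the GC and length offset the value was -0.35 (adjusted p = 0.000115). Against siNC replicate 3 alone it was -0.26. CDK1 (ENSG00000170312.16) lies at chr10:60778331-60794852, plus strand.

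**Figure D2:**
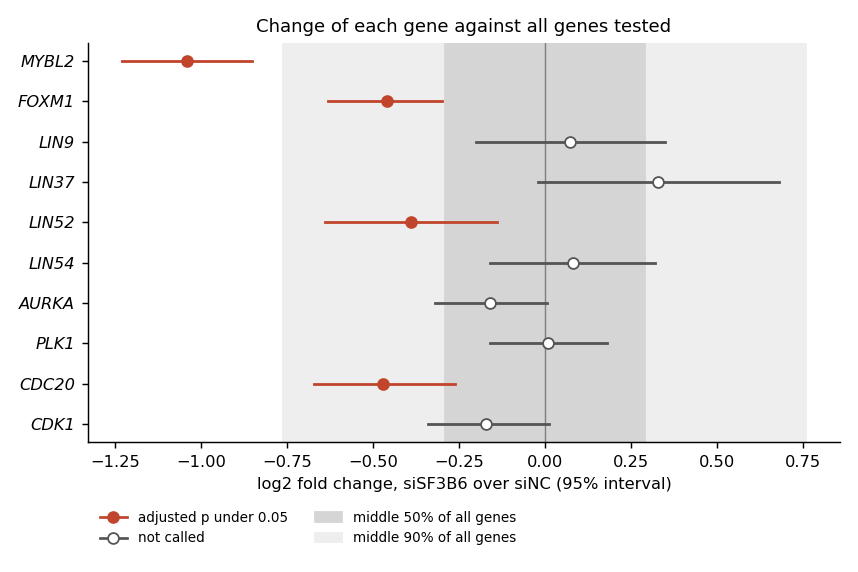
Log2 fold change of each gene, siSF3B6 over siNC, with its 95% interval; filled points passed the threshold, and grey bands show where the middle 50% and the middle 90% of all tested genes lie. MYBL2 lies outside the wide band, which runs from -0.76 to 0.76, while AURKA, PLK1, CDK1, LIN9 and LIN54 lie inside the narrow band, from -0.29 to 0.29.

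Some of the 10 genes shared a pattern between replicates. GC content, taken from the longest annotated transcript, was 60.5% for MYBL2, 59.1% for LIN37, 57.9% for CDC20, 57.1% for PLK1 and 55.6% for FOXM1. It was 46.6% for AURKA, 43.6% for LIN52, 41.2% for LIN9, 39.1% for LIN54 and 37.0% for CDK1, against a median of 48.4% over tested genes. LIN9, LIN54 and CDK1, the 3 genes of lowest GC content, were highest in replicate 3 of both groups. MYBL2, FOXM1 and PLK1, of high GC content, and LIN52 were lowest in replicate 3 of both groups. Of the other genes of high GC content, LIN37 was highest in siSF3B6 replicate 3 and in the middle in siNC replicate 3, and CDC20 was lowest in siSF3B6 replicate 3 and highest in siNC replicate 3. The part of GC content in these patterns was not tested beyond the offset. After the GC and length offset, MYBL2 was at -0.83, FOXM1 at -0.35 and CDC20 at -0.30, all 3 still called. With that offset 6 of the 10 genes were lower (MYBL2, FOXM1, LIN52, AURKA, CDC20 and CDK1) and 2 were higher (LIN37 and PLK1). Over all genes tested the offset gave 3831 lower and 3994 higher calls, against 3380 lower and 3509 higher without it.

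Levels of different genes were compared per transcript length, on the FPKM values deposited by the authors. In siSF3B6 the order of the means was CDC20 (83.2 ± 11.0 FPKM, SD, n = 3), AURKA (52.9 ± 1.50), CDK1 (31.8 ± 2.08), FOXM1 (28.9 ± 1.29), PLK1 (25.0 ± 1.94) and MYBL2 (17.7 ± 1.91 FPKM). In siNC it was CDC20 (119 ± 4.89 FPKM), AURKA (61.1 ± 3.49), FOXM1 (41.3 ± 1.37), MYBL2 (37.8 ± 0.540), CDK1 (37.0 ± 2.75) and PLK1 (25.8 ± 0.414 FPKM). MYBL2 thus took the sixth place in siSF3B6 against the fourth place in siNC, where its libraries overlapped with those of CDK1. All other neighbours among these 6 genes were apart in the 3 libraries of either group.

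The mRNAs of the MuvB subunits had far lower FPKM than those of the factors that bind them. In siSF3B6, LIN54 had 3.12 ± 0.470 FPKM, LIN9 2.35 ± 0.393, LIN52 1.64 ± 0.0300 and LIN37 0.877 ± 0.0404 FPKM. In siNC, LIN54 had 3.06 ± 0.291 FPKM, LIN9 2.31 ± 0.266, LIN52 2.23 ± 0.222 and LIN37 0.723 ± 0.0929 FPKM. The order of these 4 genes was the same in both groups. LIN54 and LIN9 overlapped in siSF3B6, and LIN9 and LIN52 overlapped in siNC.

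**Figure D3:**
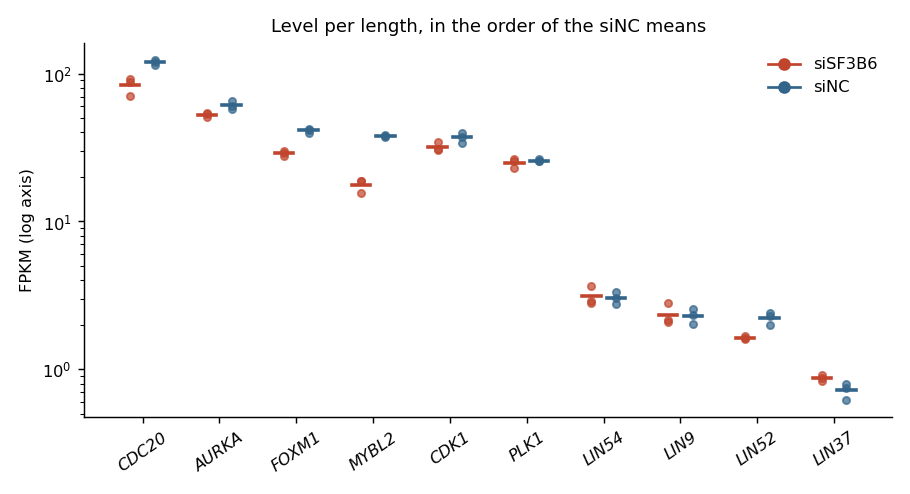
Deposited FPKM of the 10 genes on a log axis, siSF3B6 left of siNC for each gene, with points for the libraries and bars for the group means. The 6 genes of highest level lie between 15.51 and 124.24 FPKM and the 4 LIN genes between 0.62 and 3.66 FPKM, and MYBL2 shows the widest gap between its groups.

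Ratios of each effector to a related gene were computed within each library, where scaling between libraries cancels. There were 5 such pairs. AURKA was set against AURKB, the chromosomal passenger kinase of the same family. The log2 ratio of AURKA to AURKB was 1.71, 1.60 and 1.75 in siSF3B6 replicates 1 to 3 against 0.93, 0.87 and 1.18 in siNC replicates 1 to 3, a difference of 0.70. It was higher in all siSF3B6 libraries, and AURKB was called lower by itself (58.4 ± 4.61 CPM in siSF3B6 and 105 ± 7.20 CPM in siNC, log2 fold change -0.85, adjusted p = 1.27e-05).

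The log2 ratio of CDK1 to CDK2, the S phase kinase, was 1.13, 1.15 and 1.34 in siSF3B6 replicates 1 to 3 against 0.95, 0.86 and 0.87 in siNC replicates 1 to 3, a difference of 0.31. CDK2 was called lower, at -0.48 (adjusted p = 0.000353), while CDK1 was not called. The log2 ratio of MYBL2 to RBL2, the pocket protein p130 of DREAM, was 2.00, 1.97 and 1.45 in siSF3B6 replicates 1 to 3 against 2.63, 2.75 and 2.58 in siNC replicates 1 to 3. This difference of -0.85 was -0.67 without siSF3B6 replicate 3, the library with the lowest ratio.

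The log2 ratio of PLK1 to PLK4, the kinase of centriole duplication, was 2.24, 2.27 and 1.77 in siSF3B6 replicates 1 to 3 against 2.57, 2.80 and 2.30 in siNC replicates 1 to 3, a difference of -0.46. The groups did not overlap, but siSF3B6 replicate 2 and siNC replicate 3 were nearly equal. PLK4 was called higher (0.46, adjusted p = 0.0069), and was at 0.23 against siNC replicate 3 alone. Without siSF3B6 replicate 3 the ratio differed by -0.30. The log2 ratio of CDC20 to FZR1, which encodes the other activator of the anaphase-promoting complex, was 1.88, 1.93 and 1.86 in siSF3B6 replicates 1 to 3 against 1.98, 2.00 and 2.20 in siNC replicates 1 to 3. This difference of -0.17 was -0.10 without siNC replicate 3. FZR1 was called lower (-0.30, adjusted p = 0.0201), which was not the case at -0.29 (adjusted p = 0.0666) when siNC replicate 1 was left out, -0.27 (adjusted p = 0.0886) when siNC replicate 2 was and -0.05 (adjusted p = 0.464) under the GC and length offset.

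For each of the 5 ratios the groups did not overlap and the exact two-sided permutation test gave p = 0.1, the smallest this design allows, and 0.1 again after Benjamini-Hochberg adjustment over the 5 pairs. The differences were the same to 2 decimals on the deposited FPKM values, which is no separate check, since gene length cancels in them. The ratios were not recomputed under the GC and length offset, which differs between the genes of a pair. Under it CDK1 was at -0.35 and CDK2 at -0.42, PLK1 at 0.13 and PLK4 at 0.27. MYBL2 was at -0.83 and RBL2 at -0.33, AURKA at -0.18 and AURKB at -0.72, and CDC20 at -0.30 and FZR1 at -0.05.

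**Figure D4:**
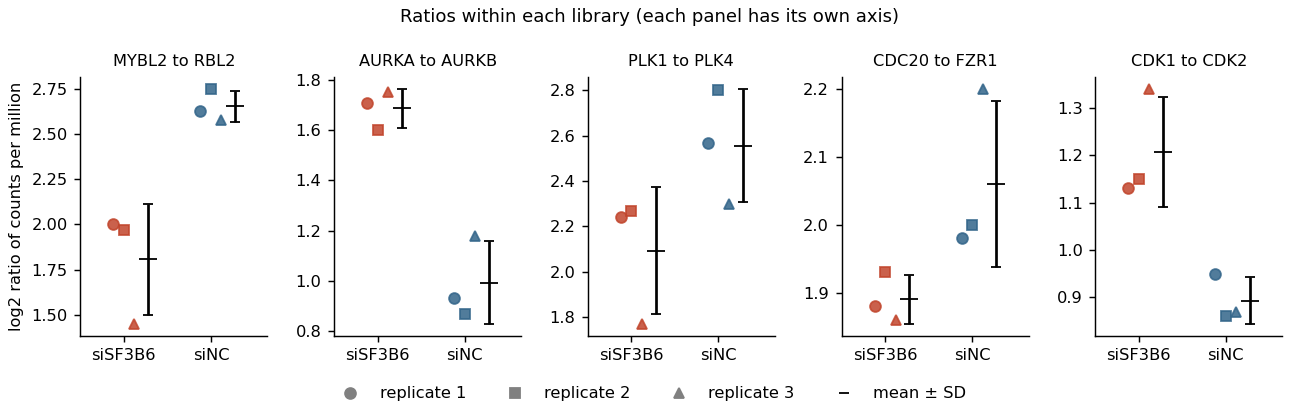
Log2 ratio of each pair of genes in each library (CPM), siSF3B6 left of siNC, with the mean and SD; each panel has its own axis, which does not start at 0. AURKA to AURKB and CDK1 to CDK2 are higher in siSF3B6 (differences of 0.70 and 0.31), and MYBL2 to RBL2, PLK1 to PLK4 and CDC20 to FZR1 are lower (-0.85, -0.46 and -0.17).

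The genes around the 10 were then counted in 7 lists written from general knowledge, each set beside the 20.0% lower and 20.8% higher calls of all tested genes. The lists were chosen with earlier results of these data known, so the shares are a description and not a test. Of 8 genes for the other DREAM components and the DREAM kinase, 2 were lower (25.0%), 2 were higher (25.0%) and the median log2 fold change was -0.086. DYRK1A, the kinase that acts on LIN52, rose by 0.57 on the log2 scale (adjusted p = 0.000221), with a mean of 52.6 ± 4.55 CPM in siSF3B6 against 35.4 ± 1.07 CPM in siNC. E2F5, a repressor E2F, rose by 0.53 (adjusted p = 0.00139). RBBP4, the histone chaperone of MuvB, fell by 0.42 (adjusted p = 0.00122), and the E2F dimer partner TFDP1 fell by 0.32 (adjusted p = 0.00409). E2F5 was at 0.34 and TFDP1 at -0.31 against siNC replicate 3 alone. The pocket proteins RBL2 (-0.20) and RBL1 (0.023), E2F4 (-0.20) and TFDP2 (0.032) did not pass the threshold. RBL2 passed it under the GC and length offset (-0.33, adjusted p = 0.00159) and without siSF3B6 replicate 3 (-0.29, adjusted p = 0.0169).

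Of 14 regulators and relatives of MYBL2 and FOXM1, 6 were lower (42.9%) and 6 higher (42.9%), with a median of -0.14. EP300, an acetyltransferase and coactivator, rose by 0.65 (adjusted p = 0.000187), and FBXW7, a substrate receptor of an SCF ubiquitin ligase, by 0.61 (adjusted p = 0.000675). USP28, a deubiquitinase, rose by 0.45 (adjusted p = 0.00421), and the mRNA decay factor ZFP36 by 0.41 (adjusted p = 0.00622). CDK2 fell by 0.48 (adjusted p = 0.000353), GTSE1 by 0.36 (adjusted p = 0.00282) and CCNF, which encodes cyclin F, by 0.36 (adjusted p = 0.00521). USP28 was at 0.21, ZFP36 at 0.30, GTSE1 at -0.39 and CCNF at -0.26 against siNC replicate 3 alone.

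Of 19 genes of the CDK1 activation switch, 4 were lower (21.1%) and 4 higher (21.1%), shares near those of all tested genes, with a median of -0.018. PKMYT1, the membrane kinase that inhibits CDK1, was at 27.7 ± 3.57 CPM in siSF3B6 and 55.5 ± 4.68 CPM in siNC, a log2 fold change of -1.0 (adjusted p = 1.45e-05). PPP2R2A, the regulatory subunit B55 alpha of the phosphatase PP2A, which opposes CDK1, was at 117 ± 7.30 CPM in siSF3B6 and 57.9 ± 4.66 CPM in siNC, a log2 fold change of 1.02 (adjusted p = 3.37e-06). CDC25B, a phosphatase that activates CDK1, fell by 0.49 (adjusted p = 0.000607), and was at -0.38 against siNC replicate 3 alone. CCNB1, the cyclin partner of CDK1, was at -0.13 (adjusted p = 0.169), and WEE1, its nuclear inhibitory kinase, at 0.14 (adjusted p = 0.165).

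The smaller calls of this list were each lost in at least 1 fit with a library left out, which also rests on fewer libraries. CCNA2, which encodes cyclin A, was at 0.37 (adjusted p = 0.015), and lost the call at 0.28 (adjusted p = 0.07) when siSF3B6 replicate 3 was left out, and at 0.30 without siNC replicate 1 or 2 (adjusted p = 0.0789 and 0.0822). CCNA2 was at 0.11 against siNC replicate 3 alone. The Greatwall kinase MASTL (-0.29) was not called without siSF3B6 replicate 1 (-0.27), siSF3B6 replicate 2 (-0.27) or siNC replicate 1 (-0.28). The CDK-binding protein gene CKS1B (-0.27) was not called without siNC replicate 1, where its value was again -0.27. ENSA (0.22), a PP2A inhibitor, was not called without replicate 1 or 2 of either group, at values from 0.18 to 0.24. The CDK-activating kinase CDK7 (0.33) was not called without any single library but siNC replicate 3, at values from 0.22 to 0.33. Without siNC replicate 1, 2 genes of the list were lower. The number higher was 2 without any 1 of the siSF3B6 libraries and 1 without siNC replicate 1 or 2. Over all genes, 2503 were lower and 2661 higher without siNC replicate 1, and 2503 were higher without siNC replicate 2. Leaving out 1 of the siSF3B6 libraries gave 2918 to 3162 higher calls over all genes. With the GC and length offset 9 were lower.

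Of 22 activators, partners and relatives of AURKA and PLK1, 8 were lower (36.4%) and 3 higher (13.6%), with a median of -0.13. BORA, the cofactor through which AURKA activates PLK1, was at 11.0 ± 1.85 CPM in siSF3B6 and 19.4 ± 1.69 CPM in siNC, a log2 fold change of -0.82 (adjusted p = 0.000197). The mitotic kinase NEK9 fell by 0.54 (adjusted p = 0.000153) and TACC3, an AURKA substrate at the spindle, by 0.51 (adjusted p = 0.000366). TPX2, the spindle activator of AURKA, was at -0.085 (adjusted p = 0.396). PLK2, a relative of PLK1, rose to 281 ± 13.5 CPM in siSF3B6 against 150 ± 9.48 CPM in siNC, a log2 fold change of 0.90 (adjusted p = 4.54e-06). PPP6C, the phosphatase that inactivates AURKA, was at 0.27 (adjusted p = 0.0173), a call lost without siNC replicate 2 (0.21, adjusted p = 0.116). It was at 0.071 (adjusted p = 0.294) under the GC and length offset and 0.17 (adjusted p = 0.122) under library size alone. PPP6C was at 0.18 against siNC replicate 3 alone.

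Of 28 genes of the anaphase-promoting complex and the spindle checkpoint, which act with CDC20, 12 were lower (42.9%) and 3 higher (10.7%), with a median of -0.18. UBE2S, the enzyme that extends ubiquitin chains on substrates of the complex, was at 251 ± 40.4 CPM in siSF3B6 and 461 ± 23.0 CPM in siNC, a log2 fold change of -0.88 (adjusted p = 4.68e-05). The checkpoint genes MAD1L1 and MAD2L1 fell by 0.72 (adjusted p = 8.97e-05) and 0.51 (adjusted p = 0.00221), and ANAPC2, the cullin subunit of the complex, by 0.60 (adjusted p = 0.000723). UBE2D1, a ubiquitin-conjugating enzyme, rose by 0.61 (adjusted p = 0.000593), and was at 0.53 against siNC replicate 3 alone. CDC27 (0.30) and the checkpoint kinase TTK (0.29) were also called higher, and both lost the call without siNC replicate 2, as TTK did without siNC replicate 1 or siSF3B6 replicate 3. Under the GC and length offset CDC27 was at 0.074 (adjusted p = 0.317) and TTK at 0.13 (adjusted p = 0.0898). With library size alone CDC27 was at 0.20 and TTK at 0.19, again with no call. CDC27 was at 0.33 and TTK at 0.13 against siNC replicate 3 alone. Without siNC replicate 2, 7 genes of this list were lower and 1 was higher, and without siNC replicate 3, 5 were higher. Calls over all genes moved too. Without siNC replicate 2, 2541 of 17213 genes were lower and 2503 higher, and without siNC replicate 3, 3881 of 17277 were higher. The median of the list was -0.22 against siNC replicate 3 alone, and ANAPC2 was at -0.41.

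The last comparison set late-cycle genes with promoters of the MuvB, MYBL2 and FOXM1 type beside earlier genes with E2F promoters. Of 71 tested late-cycle genes, 30 were lower (42.3%) and 8 higher (11.3%), with a median log2 fold change of -0.16. LMNB1, which encodes lamin B1, was at 49.0 ± 2.47 CPM in siSF3B6 and 97.9 ± 3.01 CPM in siNC, a log2 fold change of -1.0 (adjusted p = 1.93e-06). G2E3, a ubiquitin ligase gene, rose by 0.65 (adjusted p = 0.000282) and CDCA2, a subunit of a chromatin-bound phosphatase, by 0.34 (adjusted p = 0.00892). CDCA2 was not called under library size alone (0.23, adjusted p = 0.0666), and was at 0.31 against siNC replicate 3 alone. Of the 72 genes in this list, 26 also stand in the lists above, so the counts are not separate. The number higher was 5 without siSF3B6 replicate 3 or siNC replicate 1 and 3 without siNC replicate 2. Over all genes it was 3162 without siSF3B6 replicate 3, 2661 without siNC replicate 1 and 2503 without siNC replicate 2. With the GC and length offset 49 were lower and 4 higher. The median of the list was -0.22 against siNC replicate 3 alone.

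Of 46 G1/S genes, 39 were lower (84.8%) and 1 higher (2.17%), with a median of -0.65. POLA2, a subunit of DNA polymerase alpha and primase, fell by 0.99 (adjusted p = 1.4e-05), near MYBL2 in size. The gene called higher was E2F3 (0.32, adjusted p = 0.0103). Its call was lost without siNC replicate 2 (0.28, adjusted p = 0.061) and under library size alone (0.21, adjusted p = 0.0775). E2F3 was at 0.28 against siNC replicate 3 alone. The number lower stayed between 36 and 44 in the 20 alternatives. E2F1 (-1.34), E2F2 (-1.33), CDC45 (-1.19) and POLD1 (-1.13) had the largest changes. MYBL2, at -1.04, was below the median of either list. FOXM1 (-0.46) and CDC20 (-0.47) were below the median of the late-cycle list but not that of the G1/S list. AURKA (-0.16) and CDK1 (-0.17) were near the median of the late-cycle list and PLK1 (0.0088) was above it. The difference between the lists was not tested.

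**Figure D5:**
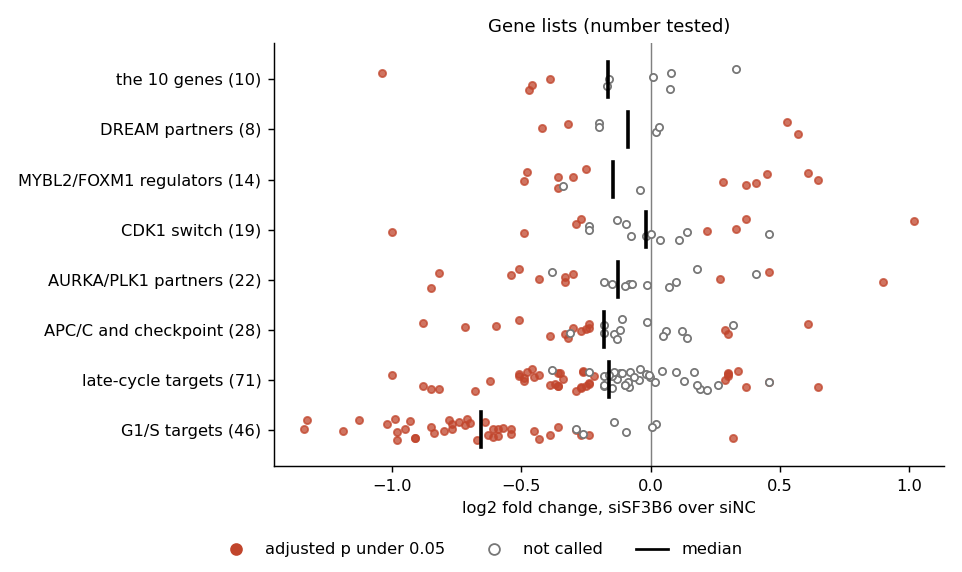
Log2 fold change, siSF3B6 over siNC, of every tested gene in the 10 genes and the 7 lists; filled points passed the threshold, and the vertical bar is the median of the list. The bar of the G1/S list lies at -0.65 and that of the late-cycle list at -0.16, equal to that of the 10 genes.

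The genes whose pattern over the 6 libraries was most like that of a member were found by the root mean square difference of log2 CPM, centred on each gene's mean, among 11290 genes of at least 5 CPM. Nearest to MYBL2 were CYB561A3 (0.0238), PAQR4 (0.0392), RILPL2 (0.04), CENPP (0.0514) and POLA2 (0.0515). Nearest to FOXM1 were ARRB1 (0.016), PGD (0.0278), PRC1 (0.0288), PTPRS (0.0291) and C9orf40 (0.0296). Of the 10 genes themselves, LIN52 (0.0732) and CDC20 (0.107) were closest to FOXM1, and CDC20 (0.29) and FOXM1 (0.301) were closest to MYBL2. With 6 libraries in 2 groups, such a likeness is mostly a like change between the groups.

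The siRNA sequences were compared with the members because a duplex can also act through a seed. The sense strands, without their overhangs and with the 7 bases that pair with bases 2 to 8 of the guide in capitals, are as follows.
siSF3B6: ggaggaacaguUGAAGCUu
siNC: uucuccgaacgUGUCACGu

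Annotated 3' UTRs were found for all 10 genes. The site of the siSF3B6 duplex was in the 3' UTR of LIN54 alone, and in 18.9% of 19436 genes. The site of the siNC duplex was in the 3' UTR of MYBL2 alone, and in 3.73% of 19436 genes. Whether the duplexes acted through these sites was not tested.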

How the data were processed

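Polyadenylated RNA of 3 siSF3B6 and 3 siNC libraries was used, grouped by their titles. Libraries were strand-specific, made by removal of the dUTP-marked strand, per the labels' protocols. The authors deposited unnormalized whole read counts for 39323 genes. The authors also deposited FPKM values for 39210 genes, used here only for levels per length and for alternatives. The submitters' processing notes list HISAT2, DESeq2 and hg38. How reads were counted, whether by strand and on which annotation, is not given in the sources used here. Overlapping genes can therefore share reads.

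After filterByExpr and TMM scaling, counts were put to the quasi-likelihood test of edgeR 4.0.16 in R 4.3.3, siSF3B6 against siNC, with Benjamini-Hochberg adjustment over 16869 genes and a threshold of 0.05. The 95% intervals use the t distribution with the fit's degrees of freedom. Depth was 28504091 to 38546037 reads per library. The test was also run on simulated counts in which far fewer genes changed than were called here. The outcome of that run is not reported here and is no support for the calls. The members and lists were chosen with earlier results of these data known. Named genes are the 10 members, SF3B6, the genes of the 5 ratios, up to 4 called genes of at least 5 CPM with the largest change per list and direction, and the 5 genes most like MYBL2 or FOXM1. Of these, 1 gene is not reported here. Other list members are given as values where a result turns on them. GENCODE release 29 on GRCh38, not stated to be the authors' annotation, gave positions, GC content, exon overlaps and 3' UTRs. Promoter windows are from RefSeq (GRCh38.p14).

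The alternatives were RLE factors, library size only, DESeq2 1.42.0, other filters, a replicate block, each library left out, the libraries numbered 1 and 2, siNC replicate 3 alone as control, a GC and length offset (lowess, span 0.3) with and without the block, no mitochondrial genes, and limma 3.58.1 on log2(FPKM + 1) or log2(FPKM + 0.1).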

Additional observations from a re-analysis of the deposited data

How the results depend on the processing

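Each gene was recomputed in 20 alternatives. MYBL2, FOXM1, CDC20, SF3B6 and AURKB kept their direction and their side of the threshold in all 20. The number of the 10 genes called lower ranged from 3 to 6. The number called higher was 0, except 2 with the GC and length offset and 1 with the offset and the block. AURKA and CDK1 passed the threshold with the offset, with library size alone and within the libraries numbered 1 and 2. These libraries are closer to each other within a group than to replicate 3, so their spread is narrow.

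The sign turned only for genes that were near 0 or, for CDK7, had a call lost in most alternatives. With library size alone LIN54 was at -0.019, LIN9 at -0.025 and PLK1 at -0.10. With the offset LIN54 was at -0.12 and LIN9 at -0.086, and with the offset and block LIN54 was at -0.12 and LIN9 at -0.085. Against siNC replicate 3 alone LIN54 was at -0.053, LIN9 at -0.069 and CDK7 at -0.024. On log2(FPKM + 1) PLK1 was at -0.044, with or without a filter, and on log2(FPKM + 0.1) at -0.046. Leaving out 1 library at a time gave -0.056 to 0.15 for LIN54, -0.076 to 0.15 for LIN9 and -0.04 to 0.063 for PLK1. The cause was not tested.

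Counts of calls in the lists also moved, while the number of G1/S genes called lower stayed between 36 and 44. With library size alone, which shifted the median of all genes by -0.10 and split the calls into 2459 higher and 4558 lower (3509 and 3380 with TMM), 4 DREAM partners were lower, 7 CDK1 switch genes were lower and 2 higher, and 1 checkpoint, 3 late-cycle and 0 G1/S genes were higher. With the offset, and with the offset and block, 4 DREAM partners and 9 CDK1 switch genes were lower and 5 AURKA and PLK1 partners higher, and 49 late-cycle genes were lower and 4 higher (48 and 5 with the block). Within the libraries numbered 1 and 2, 4 DREAM partners were lower, and 5 checkpoint and 15 late-cycle genes were higher. Of 17045 genes in all, 4600 were lower and 4870 higher there. Against siNC replicate 3 alone, 1293 genes in all were lower and 1178 higher. There, 1 DREAM partner was lower and 1 higher, 2 regulators of MYBL2 and FOXM1 were lower and 2 higher, 3 checkpoint and 17 late-cycle genes were lower, and 1 CDK1 switch gene, 1 AURKA or PLK1 partner, 0 checkpoint genes, 1 late-cycle gene and 0 G1/S genes were higher. On either log2(FPKM) scale with the filter, 1 CDK1 switch, 1 checkpoint and 3 late-cycle genes were higher. Of 13495 genes in all, 2470 were higher there on log2(FPKM + 1) and 2462 on log2(FPKM + 0.1). Without that filter 5 AURKA and PLK1 partners were lower, and 1 of them, 1 DREAM partner, 2 regulators, 1 CDK1 switch, 1 checkpoint, 1 late-cycle and 0 G1/S genes were higher. In all, 1561 of 39210 genes were then higher and 2256 lower. On unfiltered log2(FPKM + 1), PLK4, E2F5, USP28, ZFP36, CKS1B, CCNA2, PPP6C, CDC27, TTK, CDCA2 and E2F3 were among the genes that lost their call.

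Leaving out 1 library at a time gave 2 to 4 lower and 1 to 5 higher CDK1 switch genes, 7 to 13 lower and 1 to 5 higher checkpoint genes, 3 to 11 higher late-cycle genes and 0 to 1 higher G1/S genes. Over all genes it gave 2503 to 3690 lower and 2503 to 3881 higher calls. The ratio differences then ran from -0.94 to -0.67 (MYBL2 to RBL2), 0.63 to 0.79 (AURKA to AURKB), -0.59 to -0.30 (PLK1 to PLK4), -0.21 to -0.10 (CDC20 to FZR1) and 0.25 to 0.35 (CDK1 to CDK2). Replicate numbers were not taken as pairs, since the deviations of same-numbered libraries correlated by 0.0397, 0.106 and 0.136 over genes, although each library correlated best with its own number. With the replicate block 4047 genes were higher and 4005 lower, 14 late-cycle genes were higher, and CDK1 was called lower (-0.17, adjusted p = 0.0399). Counts of 62 to 110 reads per library limit what can be said of LIN37.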
